A study of Mus musculus with 3 samples.

Results

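The interleukin 1 (IL-1) genes of the mouse gallbladder are described here cell class by cell class. The 10 genes, of 31053 in the matrix, were taken by symbol: the ligands Il1a, Il1b, Il18 and Il33, the receptor antagonist Il1rn, the decoy receptor Il1r2, the receptor chains Il1r1, Il1rap and Il1rl1, and the inflammasome sensor Nlrp3. All 10 were found. The study made single-cell 3′ RNA libraries of gallbladders from male C57BL/6 mice gavaged with nanoplastics for 3 weeks, with nanoplastics for 6 weeks, or with vehicle for 6 weeks. Each of the 3 groups is 1 library of 10 pooled gallbladders, dissociated in trypsin. The age of the mice and the size, dose and polymer of the particles are not given in the sources used here. Barcodes carry a library number, 1, 2 or 3, that no label ties to a group. The libraries are therefore given by number, and no comparison between exposed and vehicle mice was made.

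IL-1α and IL-1β act through the receptor IL-1R1 and its accessory protein IL-1RAP, which recruit MyD88 and IRAK kinases and start inflammatory transcription. The IL-1 receptor antagonist occupies IL-1R1 without signalling, and IL-1R2 binds IL-1 but has no signalling domain. IL-1β and IL-18 are made as precursors that caspase-1 cleaves on inflammasomes such as the one NLRP3 builds. IL-33, a nuclear cytokine set free from damaged cells, acts through ST2, the product of Il1rl1, again paired with IL-1RAP. Neutrophils and mononuclear phagocytes are the usual sources of IL-1β, barrier cells those of IL-18 and IL-33, and group 2 innate lymphoid cells (ILC2), mast cells and regulatory T cells are known ST2 carriers.

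On GRCm38, with the gene annotation of GENCODE M21, the protein-coding genes Il1r2, Il1r1, Il1rl2 and Il1rl1 lie side by side on the plus strand of chromosome 1, within 391 kb. Il1a (chr2:129299610-129309972) and Il1b (chr2:129364570-129371139) are neighbours on the minus strand of chromosome 2, within 71.5 kb. Il1rn is further off on that chromosome (chr2:24336853-24351494, plus strand). Il1rap is at chr16:26581704-26730117, Il18 at chr9:50554827-50581840, Il33 at chr19:29925114-29960718 and Nlrp3 at chr11:59541568-59566956, all on the plus strand.

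The 250 bases before the start of Il1a, Il1b, Il1rn and Il1r2 are shown because these neighbouring or related genes all had their highest level in the same cell class, the neutrophils. They come from RefSeq on GRCm38.p6, are written 5′ to 3′ on the gene's own strand, and end at the base before the start. Capitals mark matches, on either strand, to TATAAA (the core of a TATA box), TGANTCA (the core letters of an AP-1 site) and CACGTG (an E-box). The windows are chr2:129309973-129310222 (minus) for Il1a, chr2:129371140-129371389 (minus) for Il1b, chr2:24336610-24336859 (plus) for the first of 3 Il1rn starts and chr1:40085843-40086092 (plus) for Il1r2.
Il1a: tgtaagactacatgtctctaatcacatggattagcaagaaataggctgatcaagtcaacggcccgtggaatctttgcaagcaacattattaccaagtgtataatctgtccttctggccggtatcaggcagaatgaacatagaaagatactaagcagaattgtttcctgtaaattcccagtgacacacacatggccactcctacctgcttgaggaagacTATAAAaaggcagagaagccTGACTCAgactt
Il1b: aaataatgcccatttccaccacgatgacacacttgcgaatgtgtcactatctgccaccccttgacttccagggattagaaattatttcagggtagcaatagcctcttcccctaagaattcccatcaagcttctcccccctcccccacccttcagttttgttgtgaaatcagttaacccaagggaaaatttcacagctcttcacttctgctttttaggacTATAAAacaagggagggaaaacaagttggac
Il1rn: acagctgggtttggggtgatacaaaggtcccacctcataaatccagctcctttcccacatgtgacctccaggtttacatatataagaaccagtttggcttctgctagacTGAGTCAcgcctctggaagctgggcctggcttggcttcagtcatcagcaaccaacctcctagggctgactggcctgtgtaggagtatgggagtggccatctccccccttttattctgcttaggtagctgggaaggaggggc
Il1r2: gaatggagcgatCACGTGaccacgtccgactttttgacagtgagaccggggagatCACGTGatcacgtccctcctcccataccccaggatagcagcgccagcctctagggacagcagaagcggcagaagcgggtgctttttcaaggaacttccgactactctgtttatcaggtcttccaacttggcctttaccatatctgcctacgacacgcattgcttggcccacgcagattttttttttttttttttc
Of the genes shown, the ligand genes Il1a and Il1b hold TATAAA close to the start, at bases -32 to -27 and -31 to -26. This is not particular to genes highest in neutrophils: Il33 holds TATAAA at -29 to -24 of its second start. Nlrp3, also highest in neutrophils, has no match to these motifs in its windows. Il1a also holds TGACTCA at -12 to -6, and the first start of Il1rn holds TGAGTCA at -141 to -135. The windows of the other Il1rn starts hold no match, and which start the cells used was not measured. Il1r2 has no TATAAA in this window and holds CACGTG at -238 to -233 and again at -195 to -190. Of 32851 windows of this length over all genes, 12.4% hold TATAAA, 6.75% TGANTCA and 6.02% CACGTG. All 10 genes had at least 1 window, 16 in all. These are letter matches, and binding was not measured.

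The 3 libraries held 5643, 11827 and 10230 barcodes, and filtering left 4260, 10939 and 9815 cells with a median of 10324, 9323 and 2290 unique molecular identifiers (UMIs), so library 3 was the shallowest per cell. A marker gate, in which none of the 10 genes is a marker, placed 23160 of the 25014 kept cells in a class, and 17 classes held at least 50 cells. Clusters built without the 10 genes, but named from the same markers as the gate, gave 96.3% of the gated cells the same name. For 3 small classes they did not: 0 of 59 monocytes, 0 of 68 natural killer (NK) cells and 21 of 203 type 1 conventional dendritic cells (cDC1) lay in a cluster of their own name, so these classes rest on the gate. Pericytes of library 3 rest on it in large part too, since 31 of 78 lay in a pericyte cluster, against 76 of 78 and 77 of 82 in libraries 1 and 2. Of the markers, 111 of 121 were highest in their own class (the exceptions were 4 monocyte markers, 2 each for ILC2 and cDC2, and 1 each for epithelium and blood endothelium). The gate used these same markers, so this count cannot show whether the classes are right. Library 1 stood apart in 2 ways: all 96 cells gated as rod photoreceptors came from it, and so did 137 of the 140 cells of a shallow macrophage cluster with Xist at 830 CPM and Ddx3y at 0, against the male label. That cluster had the microglia markers Tmem119 and Sall1 at 202 and 44.9 CPM and the macrophage marker Mrc1 at 11.2 CPM. The other macrophage cluster had Ddx3y at 220 CPM and Xist at 0, with Tmem119, Sall1 and Mrc1 at 26.9, 0 and 1204 CPM. Pooled macrophage levels with and without the Xist-positive cluster were 1315 and 1331 CPM for Il1b, 607 and 617 CPM for Nlrp3 and 57.2 and 54.1 CPM for Il1a. Across libraries, 43 barcode sequences occurred more than once. Levels (CPM) are a gene's part of all UMIs summed over the cells of a class, scaled to 1000000, with an exact Poisson interval at 95%. Shares of cells have Clopper-Pearson intervals, and both kinds cover counting error only. A 3′ library counts a molecule once whatever its length, but capture differs between genes, so ratios between genes are ratios of UMIs. Since cells of a library are not replicates, no test was made.

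Il1b, Il1r2, Nlrp3, Il1rn and Il1a, 5 of the 10 genes, were highest in neutrophils, in each of the 3 libraries. Il18 and Il33 were highest in mesothelial cells, Il1rl1 in ILC2, Il1r1 in pericytes and Il1rap in Schwann and glial cells. The highest class was the same in all 3 libraries for 7 genes, and changed with the library for Il1r1, Il1rap and Il33. The same shares over all genes of the matrix were not counted, so these counts describe the 10 genes only.

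**Figure D1:**
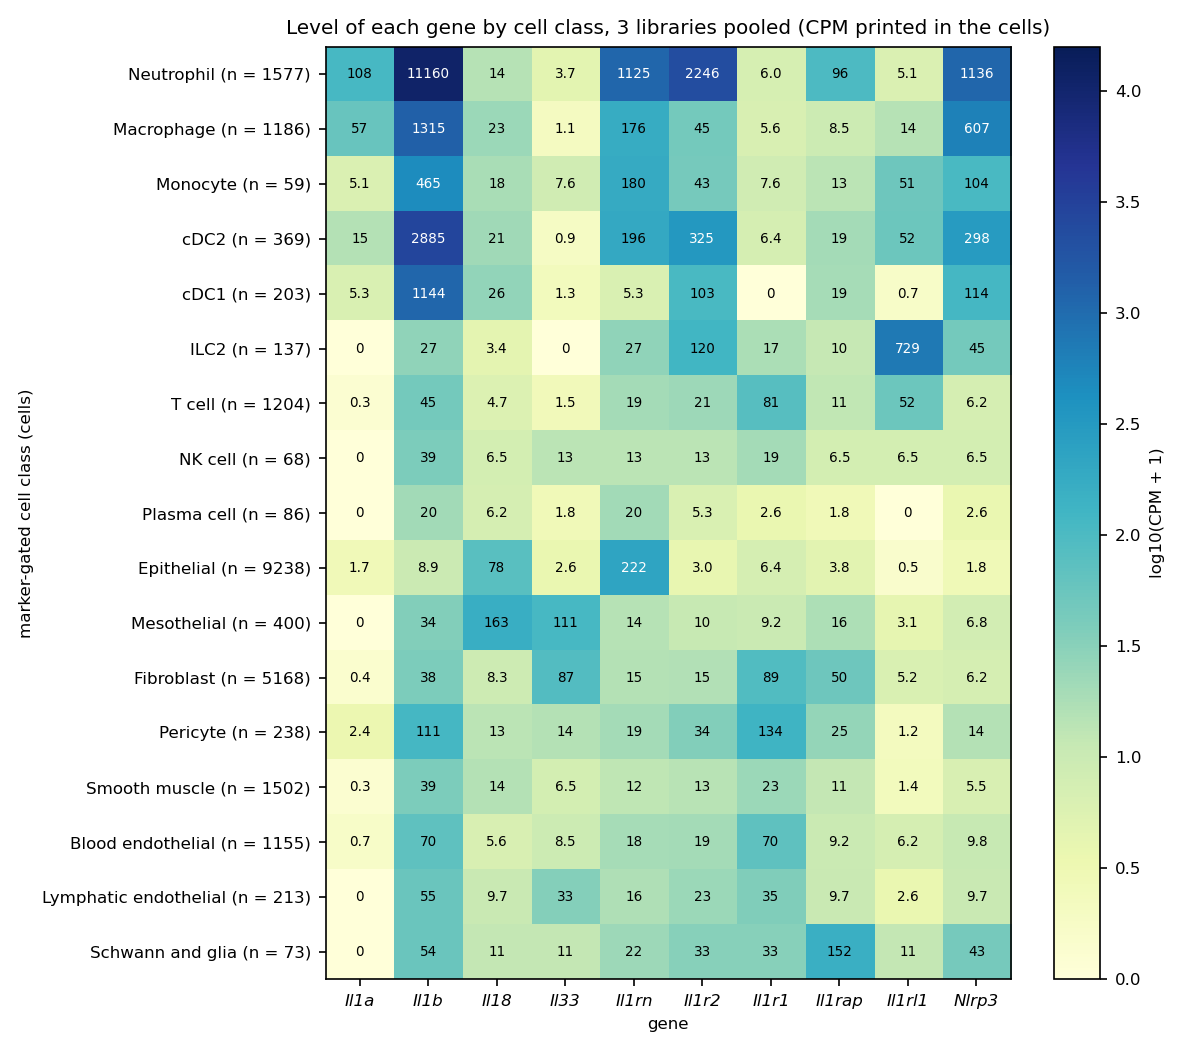
Level of the 10 genes (columns) in 17 marker-gated classes (rows), in CPM of the summed UMIs of all 3 libraries; the colour is log10(CPM + 1) and the CPM is printed in each field. The neutrophil row is the highest for 5 genes, with Il1b at 11160 CPM, and Il1rl1 stands out in ILC2 at 729 CPM.

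Among the ligands, Il1b reached 11827, 9255 and 12980 CPM in neutrophils of libraries 1, 2 and 3, and 11160 CPM pooled (95% interval 11019 to 11302, 1577 cells). In type 2 conventional dendritic cells (cDC2) it was 2320, 2869 and 4194 CPM, in macrophages 1223, 1364 and 1522 CPM, and in cDC1 838, 1380 and 1293 CPM. Neutrophils stood above cDC2, and cDC2 above macrophages, in every library, while macrophages and cDC1 overlapped. Monocytes, with 59 cells, were at 465 CPM (401 to 538). Smooth muscle, which should lack Il1b, had 31.9, 10.2 and 54.1 CPM and serves as the background level.

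After thinning every cell to 1000 UMIs, 95.2% of neutrophils (93.5 to 96.5%, 890 cells) held Il1b, against 3.59% of smooth muscle cells. The share was 76.7% in cDC2, 46.5% in cDC1 and 42.4% in macrophages, and unthinned shares were 95.8%, 91.1%, 72.4% and 51.01% in neutrophils, cDC2, cDC1 and macrophages, and 11.9% in smooth muscle. Thinning left out 687 shallower neutrophils. Neutrophils had a median of 1058 UMIs a cell, against 4590 in smooth muscle. Neutrophils of library 3 carried 10887 CPM of the 9 neutrophil gate markers, against 32685 and 35303 CPM in libraries 1 and 2, yet their Il1b and Il1r2 levels were the highest of the 3 libraries. Per 100 UMIs of those markers they held 119 UMIs of Il1b, against 36.2 and 26.2.

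In pericytes Il1b was 24.2, 34.6 and 476 CPM, so only library 3 was high, where 31 of the 78 gated pericytes lay in a pericyte cluster. All 9 neutrophil markers were detected in pericytes, summing to 226, 368 and 463 CPM by library; the part of neutrophil RNA in this Il1b level was not tested. Blood endothelium had 15.7, 69.5 and 110 CPM of Il1b, with neutrophil markers at 47.0, 47.4 and 93.6 CPM.

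Il1a, the alarmin form of IL-1, was scarcer. It had 99.2, 136 and 78.5 CPM in neutrophils and 65.7, 63.9 and 19.8 CPM in macrophages, with 14.5 CPM (10.1 to 20.3) in cDC2. Neutrophils lay above macrophages in every library. The thinned share of cells with a UMI was 8.99% in neutrophils and 4.36% in macrophages, against 0 of 1450 smooth muscle cells, which allows up to 0.207% at 3 cells. By counts rather than level, epithelium held 34.2% of the Il1a UMIs of all gated cells, macrophages 31.3% and neutrophils 27.3%, since the 9238 epithelial cells were many and deep, although their level was 1.71 CPM. The order was not the same in each library: macrophages led in library 1 with 41.7%, epithelium in library 2 with 42.4% and neutrophils in library 3 with 41.6%.

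Il18, a ligand that many epithelia make constitutively, was highest in mesothelial cells, which line the outer surface of the organ. They had 148, 182 and 164 CPM, against 67.9, 80.3 and 87.9 CPM in epithelial cells. T cells, taken as background for this gene, had 4.74 CPM. The mesothelial level exceeded the epithelial one in all 3 libraries. Epithelial cells still held 91.0% of all Il18 UMIs and mesothelial cells 4.71%. Thinned shares were 11.1% (8.08 to 14.6%) in mesothelial cells and 7.29% (6.77 to 7.84%) in epithelial cells, against 0.431% in T cells.

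Il33 had 102, 40.98 and 129 CPM in mesothelial cells and 49.3, 32.6 and 144 CPM in fibroblasts. The order of these classes turned in library 3, and the range over libraries was wider than the gap between them. With a stricter gate margin the pooled order also turned, at 76.3 CPM in mesothelial cells and 85.3 CPM in fibroblasts. Lymphatic endothelium followed with 33.4 CPM (23.7 to 45.9). Neutrophils, the background class, had 3.70 CPM. After thinning, 12.9% of mesothelial cells and 9.33% of fibroblasts held Il33, against 0.225% of neutrophils. Mesothelial Il33 was seen in 0 of 50 thinned cells of library 2, which allows up to 6.00% at 3 cells, and in 11.4% and 15.4% of those of libraries 1 and 3. Fibroblasts held 61.6% of all Il33 UMIs, but in library 2 epithelium held 54.1% and fibroblasts 36.4%. Epithelium was 60.4% of the gated cells of library 2, and its Il33 level there was 2.48 CPM, against 2.59 CPM in neutrophils.

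**Figure D2:**
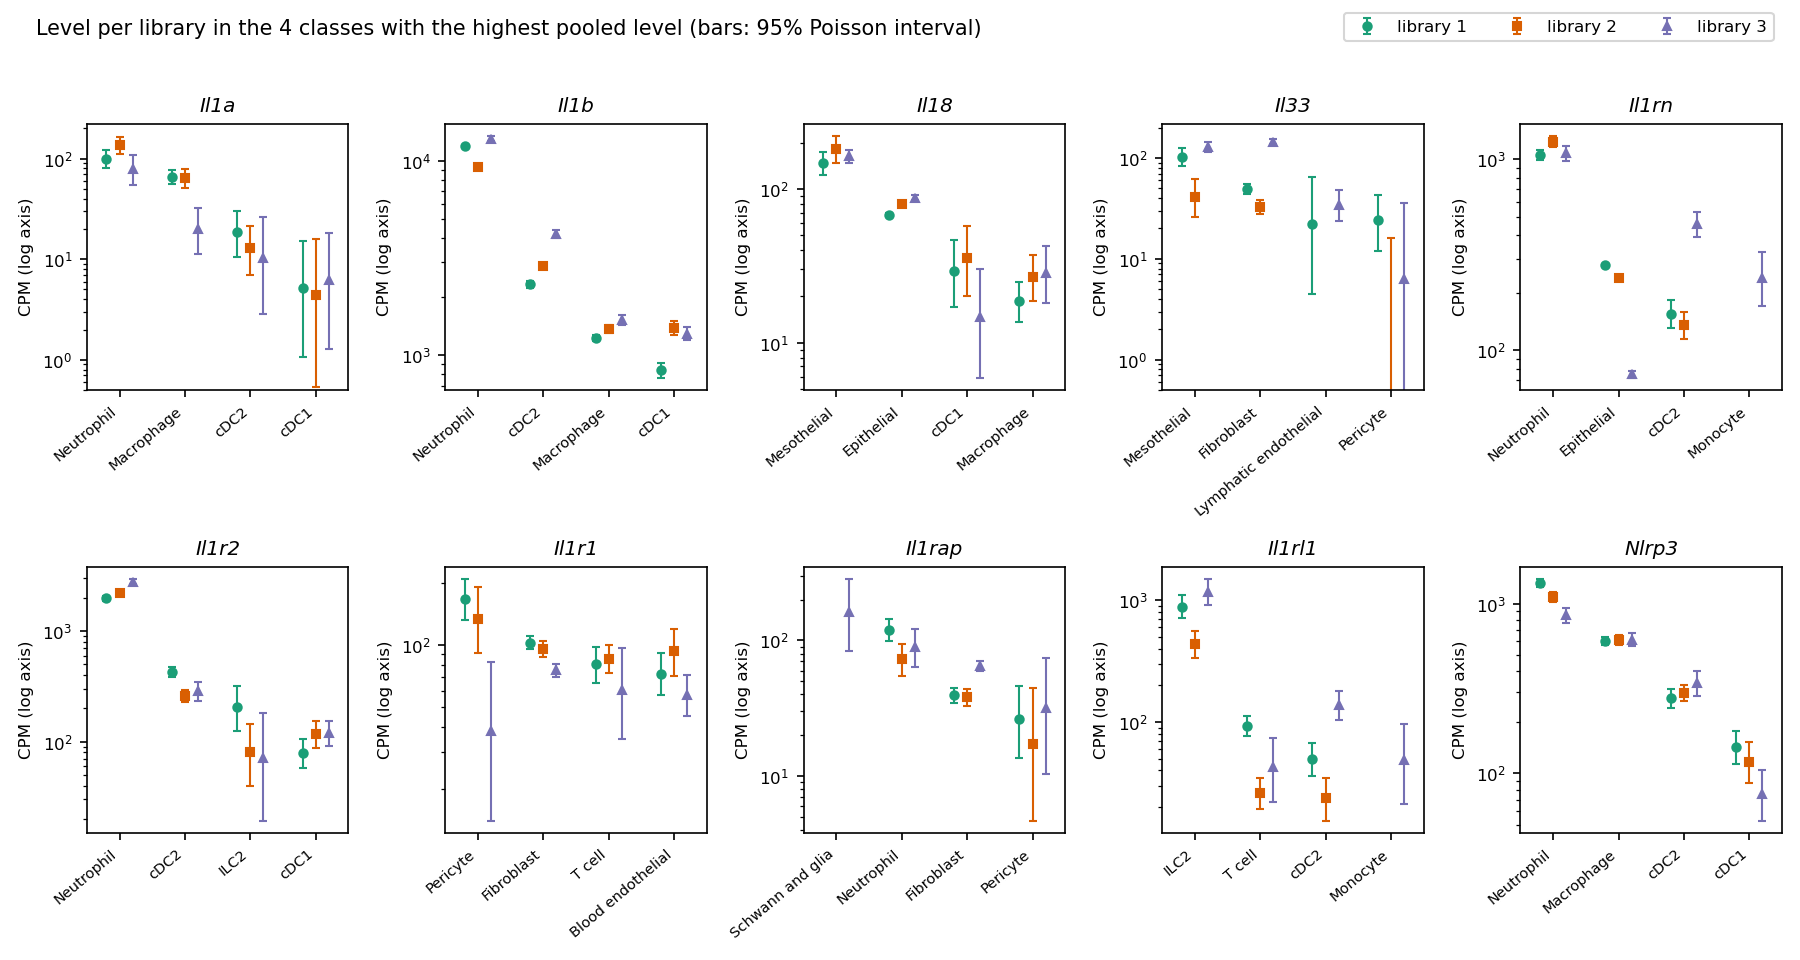
Level of each gene (CPM, log axis) in its 4 highest classes of at least 50 cells, for each library with at least 20 cells of the class; points are libraries and bars 95% Poisson intervals. Neutrophil points lie above the next class for Il1a, Il1b, Il1rn, Il1r2 and Nlrp3, Il33 in fibroblasts spans 32.6 to 144 CPM, and the Il33 level of 0 in pericytes of library 2 lies below the axis, with only its bar drawn.

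The inhibitors had 2 unlike sources. Il1rn, the receptor antagonist, was highest per UMI in neutrophils, at 1055, 1239 and 1075 CPM, and followed in epithelial cells at 279, 240 and 74.5 CPM. In cDC2 it was 155, 135 and 459 CPM, and in macrophages 175, 119 and 272 CPM, so epithelium, cDC2 and macrophages overlapped. Of all Il1rn UMIs, 89.4% lay in epithelial cells and 5.72% in neutrophils. An epithelial cell held 4.11 UMIs of Il1rn on average and a neutrophil 1.54, with medians of 13649 and 1058 UMIs in all. Thinned shares were 48.9% (45.5 to 52.2%) of neutrophils and 17.5% (16.8 to 18.3%) of epithelial cells, against 1.66% of smooth muscle cells. cDC1 had 5.30 CPM of Il1rn beside 1144 CPM of Il1b.

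The ratio of Il1rn to Il1b UMIs was 24.9 in epithelial cells, 0.101 in neutrophils, 0.134 in macrophages and 0.00463 in cDC1. In epithelium it was 34.4, 42.0 and 3.63 in libraries 1, 2 and 3, where library 3 had both less Il1rn and more counted Il1b. Epithelial Il1b was 8.11, 5.72 and 20.5 CPM by library. This was under the background level of smooth muscle in each library (31.9, 10.2 and 54.1 CPM). Per cell, Il1b averaged 0.264, 0.0852 and 0.410 UMIs in epithelium, against 0.439, 0.0660 and 0.267 in smooth muscle, whose cells were shallower. The epithelial ratio divides by these low Il1b counts, and their source was not tested. Neutrophil markers in epithelial cells were at 23.9 CPM in library 3 and at 16.6 and 15.02 CPM in libraries 1 and 2.

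Il1r2, the decoy receptor, had 1974, 2230 and 2801 CPM in neutrophils, and 426, 260 and 285 CPM in cDC2. It was 120 CPM (83.8 to 167) in ILC2, 103.3 CPM (87.7 to 121) in cDC1 and 45.5 CPM in macrophages. Smooth muscle, as background, had 3.35, 8.71 and 20.0 CPM. Thinned shares were 76.2% in neutrophils and 21.6% in cDC2, against 2.41% in smooth muscle. Neutrophils held 66.4% of the Il1r2 UMIs of all gated cells. They carried 373 UMIs of the decoy for each UMI of Il1r1, the signalling receptor.

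**Figure D3:**
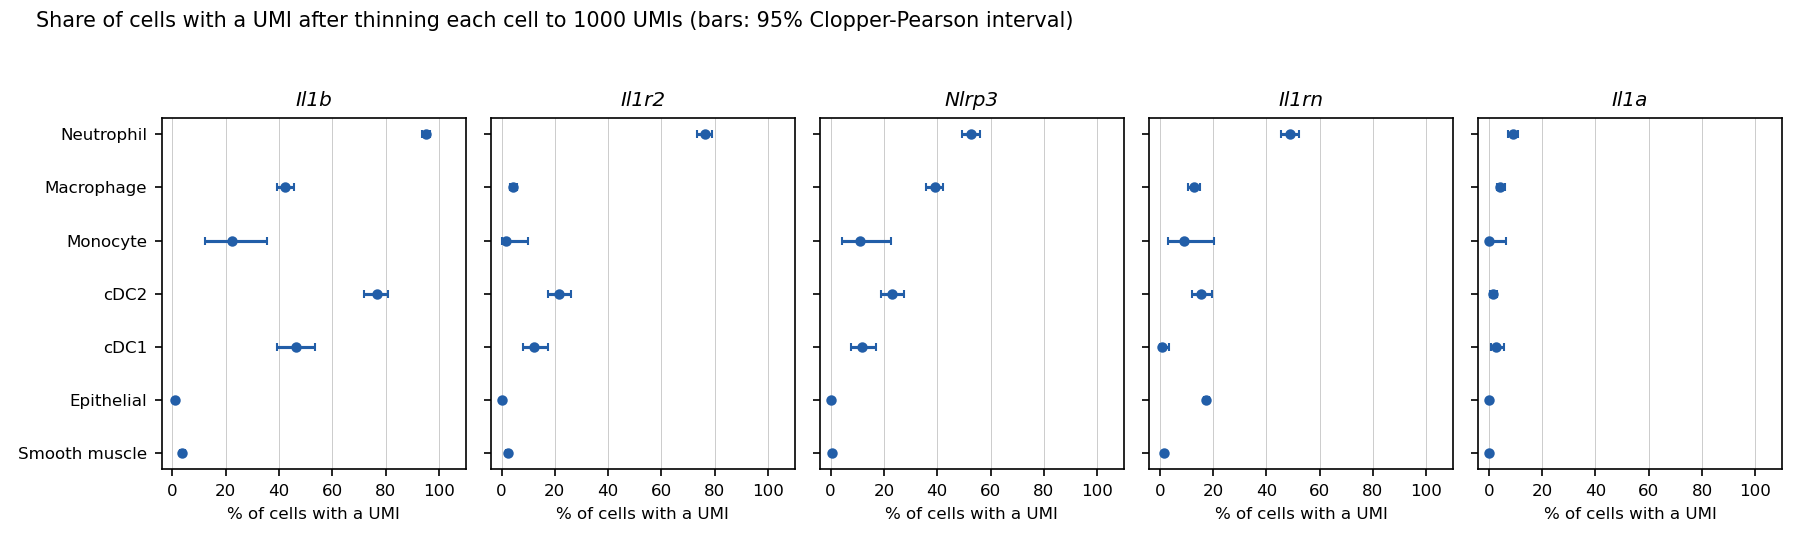
Share of cells with at least 1 UMI of the 5 genes that were highest in neutrophils, after each cell was thinned to 1000 UMIs, in 7 classes (rows); points are pooled libraries and bars 95% Clopper-Pearson intervals. Neutrophils reach 95.2% for Il1b and 76.2% for Il1r2, and smooth muscle, the background class, stays at or below 3.59% for all 5.

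Single neutrophils held several of these genes at once. Of 890 thinned neutrophils, 95.1% had UMIs of at least 2 of the 10 genes, 68.1% of at least 3 and 25.3% of at least 4. The same shares were 45.7%, 12.7% and 2.77% in cDC2 and 31.2%, 8.82% and 1.31% in macrophages. Il1b and Il1r2 were found together in 71.9% of neutrophils, Il1b and Nlrp3 in 50.7% and Il1b and Il1rn in 46.1%. Since nearly all thinned neutrophils held Il1b, each joint share lay close to the share of the other gene alone. These joint shares therefore cannot show whether the genes go together. Il1r2 was seen in 75.2% of neutrophils with Il1rn and in 77.1% of those without it. In macrophages Nlrp3 was seen in 47.0% of cells with Il1b and in 33.3% of those without; by library these shares were 39.2% and 34.4%, 47.3% and 42.4%, and 52.5% and 23.2%.

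Nlrp3, the sensor, had 1319, 1092 and 852 CPM in neutrophils and 603, 612 and 614 CPM in macrophages. In cDC2 it was 278, 298 and 340 CPM. The 3 classes kept this order in every library without overlap. Of all Nlrp3 UMIs, macrophages held 41.4% and neutrophils 35.7%, and in library 2 their shares were 36.9% and 37.7%. After thinning, 52.7% of neutrophils and 39.1% of macrophages had a UMI, against 0.690% of smooth muscle cells.

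Il1r1 was low wherever it was found and was not a myeloid gene here. Pericytes, the contractile cells of small vessels, had 167, 134 and 38.1 CPM, fibroblasts 102.6, 95.6 and 75.2 CPM, T cells 80.3, 85.4 and 60.2 CPM and blood endothelium 72.4, 93.1 and 57.1 CPM. The pericyte value of library 3 rested on 6 UMIs in 78 cells, of which 31 lay in a pericyte cluster. These 4 classes overlapped over the libraries. Neutrophils had 6.02 CPM and macrophages 5.55 CPM. In cDC1 no UMI was found among 203 cells, which allows up to 1.99 CPM at 3 UMIs. Thinned shares were 10.1% (6.43 to 14.9%) in pericytes and 7.99% (7.23 to 8.81%) in fibroblasts, against 1 of 57 cells (1.75%, 0.0444 to 9.39%) in NK cells, the background class. Fibroblasts held 46.6% of all Il1r1 UMIs, but in library 2 epithelium held 43.6% and fibroblasts 33.4%.

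Il1rap, the shared accessory chain, was highest at 152 CPM (83.0 to 255) in Schwann and glial cells, on 14 UMIs in 73 cells, 63 of them from library 3. Neutrophils had 120, 72.6 and 89.1 CPM, and fibroblasts 39.4, 38.3 and 65.2 CPM, with no overlap between the last 2 classes. T cells, the background class, had 11.3 CPM. After thinning, 7.98% of neutrophils and 5.30% of fibroblasts had a UMI, against 0.603% of T cells. Il1r1 and Il1rap, both needed to signal, were seen together in 19 of 4641 thinned fibroblasts (0.409%); Il1rap was seen in 5.12% of fibroblasts with Il1r1 and in 5.32% of those without.

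Il1rl1, which encodes the IL-33 receptor ST2, was at 885, 437 and 1168 CPM in ILC2, from 22, 69 and 46 cells. T cells had 93.3, 26.3 and 42.5 CPM and cDC2 49.8, 23.8 and 137 CPM. ILC2 stood above both in every library, by 13.98-fold over T cells when pooled. After thinning, 33.6% of ILC2 (25.2 to 42.8%) and 2.50% of T cells had a UMI, against 0.0434% of epithelial cells. In classes shallower than epithelium the share was 0.455% in blood endothelium, 0.452% in fibroblasts, 0.449% in neutrophils and 0.0690% in smooth muscle. For NK cells it was 1.75%, on 1 of 57 cells. None of 119 thinned ILC2 held both Il1rl1 and Il1rap, which allows up to 2.52% at 3 cells. Il1rap alone was seen in 1 of these cells (0.840%), so the joint count cannot show whether ILC2 with Il1rl1 lack Il1rap.

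**Figure D4:**
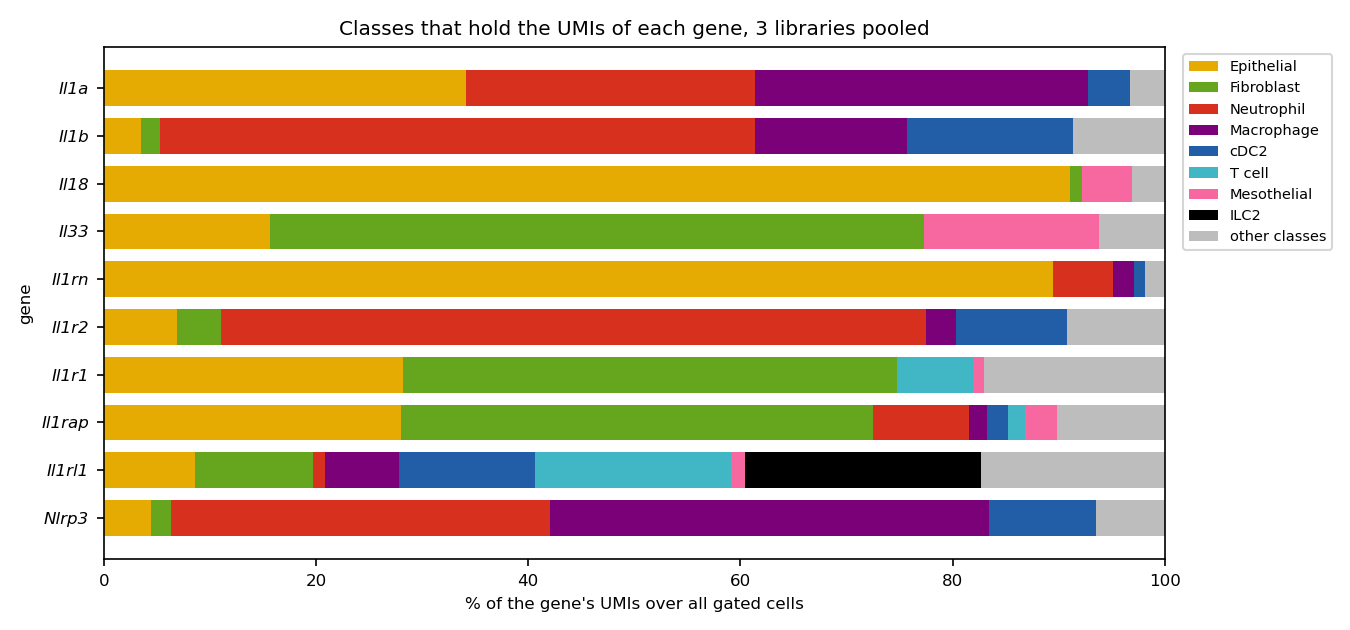
Share of each gene's UMIs, over all gated cells of the 3 libraries, that lay in each class (stacked bars, percent). Epithelial cells hold 89.4% of Il1rn and 91.0% of Il18, although neutrophils and mesothelial cells have the higher levels, and neutrophils hold 56.0% of Il1b.

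Within the epithelium Il1rn and Il18 were highest in different clusters. Cluster 5, led by Chil4 (a chitinase-like lectin), Lcn2 (an iron-sequestering defence protein) and Cxcl5 (a neutrophil-attracting chemokine), had 524, 516 and 388 CPM of Il1rn and 18.8, 24.9 and 21.7 CPM of Il18. Cluster 2, led by Ctrb1 (a digestive protease precursor), Krt18 and Reg1, had 17.1, 22.6 and 9.80 CPM of Il1rn and 142, 132 and 152 CPM of Il18. The clusters did not overlap for either gene in any library, and cluster 8, led by Chil4 and Tff2, lay between them with 222 and 45.0 CPM of Il1rn and Il18. The clusters were built without the 10 genes.

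The makeup of the epithelium differed between libraries. Cluster 5 held 652, 2058 and 35 epithelial cells in libraries 1, 2 and 3, and cluster 16, led by Ctrb1, Slc4a4 and S100g, held 918 of the 1469 epithelial cells of library 3 with 14.7 CPM of Il1rn there. Il1rn was also lower in library 3 within cluster 5, as given above; the part of this makeup in the low epithelial Il1rn level of library 3 (74.5 CPM) was not tested. Split cell by cell, epithelial cells with a UMI of Ctrb1 had 181, 155 and 42.3 CPM of Il1rn, against 443, 463 and 197 CPM in those without. For Il18 cells with Ctrb1 had 96.4, 99.7 and 104 CPM, against 19.7, 29.4 and 27.7 CPM. Split by Lcn2, cells with a UMI of it had 311 CPM of Il1rn and 58.96 CPM of Il18, against 52.1 and 114.9 CPM in those without. The split was one of level, since 74.4% of the cells with Lcn2 held a UMI of Il1rn and 46.6% one of Il18. After thinning, Il1rn was seen in 7.74% of epithelial cells with Il18 and in 18.3% of those without; by library these shares were 8.11% and 21.4%, 8.90% and 20.1%, and 2.61% and 7.43%.

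T cell clusters differed in both receptors. Cluster 9, led by Emb, Il7r and Icos and with Il17a (IL-17A) at 760 CPM, Trdc (the δ chain constant region of the T cell receptor) at 519 CPM and Il23r at 106 CPM, had 187, 191 and 94.0 CPM of Il1r1. Cluster 13, led by Ccl5, Emb and Trbc2 and with Il17a at 313 CPM, Trdc at 21.6 CPM and Il23r at 9.11 CPM, had 32.7, 20.4 and 37.3 CPM of Il1r1. For Il1rl1 the order was the reverse, with 0.820 CPM in cluster 9 and 63.7 CPM in cluster 13. T cells with a UMI of Il17a had 121, 185 and 165 CPM of Il1r1, against 64.0, 54.8 and 31.5 CPM in those without.

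Foxp3, the defining factor of regulatory T cells, was detected in 26 T cells. These held 93 of the 176 Il1rl1 UMIs of all T cells, at 1045 CPM (843 to 1280), against 25.2 CPM (20.1 to 31.3) in the 1178 T cells without it. All 164 T cells of library 3 were without Foxp3. By library, T cells without Foxp3 had 47.7, 8.19 and 42.5 CPM of Il1rl1. A UMI of Il1rl1 was found in 69.2% of T cells with Foxp3 and in 2.12% of those without, at median depths of 3328 and 2305 UMIs. The 71 T cells with Cd8a, a marker of cytotoxic T cells, had no UMI of Il1r1 or Il1rl1, which allows up to 13.8 CPM at 3 UMIs. The genes for these splits of epithelium and T cells were chosen after the class levels were seen.

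**Figure D5:**
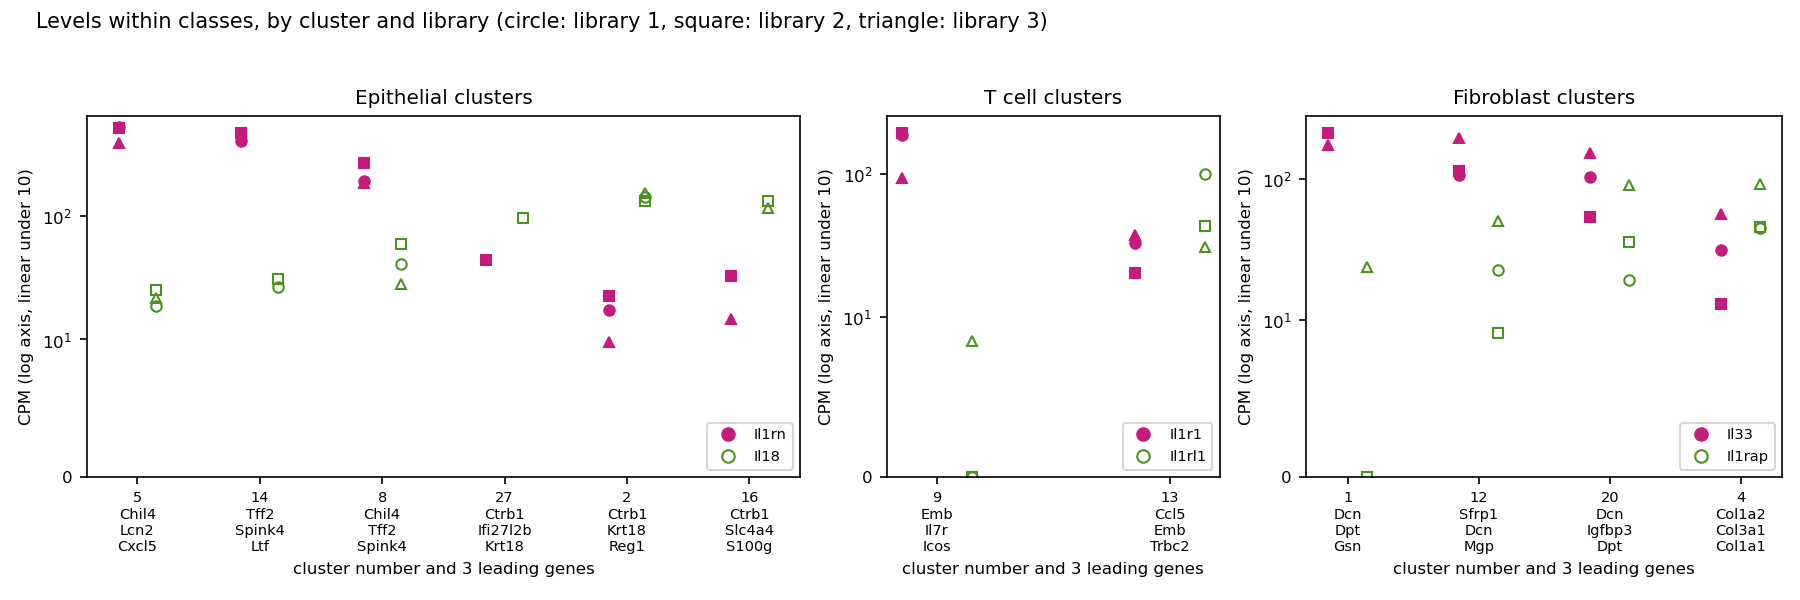
Levels (CPM, log axis that is linear under 10) of Il1rn and Il18 by epithelial cluster, of Il1r1 and Il1rl1 by T cell cluster and of Il33 and Il1rap by fibroblast cluster, for libraries with at least 20 cells of the cluster. Il1rn is high and Il18 low in epithelial cluster 5 on the left, the order is the opposite in clusters 2 and 16 on the right, and Il1r1 is higher in T cell cluster 9 than in 13.

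Fibroblasts formed 4 clusters of 732 to 1951 cells, beside a cluster of 34 cells led by Chil4 with collagen genes that is not ranked here. Among the 4, Il33 was lowest in cluster 4, led by Col1a2, Col3a1 and Col1a1, at 31.2, 12.9 and 56.8 CPM. Cluster 12, led by Sfrp1 (a secreted WNT antagonist), Dcn and Mgp, had 107, 114 and 194 CPM, and cluster 20, led by Dcn, Igfbp3 and Dpt, had 102, 53.9 and 152 CPM. Cluster 1, led by Dcn, Dpt and Gsn, had 211 and 175 CPM in libraries 2 and 3. Cluster 4 lay below the other 3 in each library. Library 3 was the highest within clusters 4, 12 and 20. Cluster 4 held 495 of 692, 809 of 1097 and 647 of 3379 fibroblasts in libraries 1, 2 and 3. Il1r1 varied less, from 77.2 CPM in cluster 12 to 97.0 CPM in cluster 4. Il1rap was highest in cluster 20 at 80.4 CPM and lowest in cluster 1 at 21.5 CPM, and in cluster 20 it was 19.2, 35.9 and 90.6 CPM by library.

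Further genes of the pathway came from 4 lists, and a gene counted as present in a class at 10 CPM and 20 UMIs or more. Of the signalling genes, 9 of 9 were present in some class. Neutrophils and both endothelial classes had all 9, and epithelium, macrophages, T cells, fibroblasts, cDC1 and cDC2 had 8 each. Classes of few cells had fewer, and the minimum of 20 UMIs limits them. The share of all genes that pass both limits in each class was not counted. Irak2, a kinase of the receptor complex, was highest in neutrophils at 375 CPM (350 to 402), and Tab2, an adaptor of the kinase TAK1, in NK cells at 305 CPM on 47 UMIs. Tollip, an adaptor that restrains IRAK1, was highest in Schwann and glial cells at 119 CPM on 11 UMIs. Myd88, the central adaptor, was highest in pericytes at 109 CPM (87.9 to 134) and next in blood endothelium at 102 CPM.

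Of the inflammasome and release genes, 10 of 10 were present in some class. Macrophages had 8 of them, neutrophils, epithelium and cDC2 had 7 each, and cDC1 had 6. Mefv, which encodes the sensor pyrin, was highest in neutrophils at 369 CPM, and ranged from 115 CPM in library 3 to 447 CPM. Nek7, which NLRP3 needs for assembly, reached 444 CPM in Schwann and glial cells on 41 UMIs, and Casp4, the mouse caspase-11 gene, 195 CPM in the same class on 18 UMIs. Pycard, the adaptor ASC, was highest in monocytes at 185 CPM (145 to 232). Casp1, the protease that matures IL-1β and IL-18, was low. It was present in macrophages at 20.1 CPM and cDC2 at 18.8 CPM, and its levels of 26.0 CPM in NK cells and 25.3 CPM in monocytes rested on 4 and 10 UMIs.

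Of 5 other IL-1 family ligands, 1 was present: Il1f9, an older symbol of the IL-36γ gene, at 105 CPM (91.4 to 119) in neutrophils, against 3.21 CPM in the next class, epithelium. Il1f6, the IL-36α gene, followed at 8.87 CPM in epithelium and Il1f8, the IL-36β gene, at 0.427 CPM in cDC2 on 1 UMI. Il1f5, the IL-36 receptor antagonist gene, had 3 UMIs over all classes and Il1f10, the IL-38 gene, had 0. Of 7 other receptors and binding proteins, 6 were present. The IL-18 receptor chains were highest in lymphoid classes, with Il18rap at 318 CPM in NK cells and Il18r1 at 268 CPM in T cells. Their second classes were unlike: Il18rap was at 114 CPM in neutrophils, and Il18r1 at 197 CPM in mesothelial cells, the class with the highest Il18. Il18bp, the soluble IL-18 inhibitor, was highest in macrophages at 30.3 CPM, and Sigirr, an inhibitory receptor, in blood endothelium at 30.8 CPM.

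The patterns most like each gene were ranked by Pearson's r of log2(CPM + 10) over 47 class and library combinations among 14763 genes. These are descriptions, since the points share libraries and depth. Nlrp3 (r = 0.93) was among the 3 genes most like Il1b, with Ptafr, the receptor for platelet-activating factor (0.94), and Cd300a, an inhibitory receptor of leukocytes (0.93). Il1r2 was most like Slc2a6, Treml2 and Mefv (0.86, 0.85 and 0.83), and Il1rn most like Sirpb1b, Igsf6 and Tpd52 (0.82, 0.80 and 0.80). Il1a was most like Gm38843, Gm37800 and Igsf6 (0.95, 0.93 and 0.92). Il18 was most like Plet1, Ano9 and Mpzl2 (0.85, 0.81 and 0.81), and Il33 most like Smoc2, Mfap5 and Prrg3 (0.83 each). Il1rl1 was most like Il13, a type 2 cytokine gene that is also a gate marker of ILC2 (0.83), then Padi2 and Tspan32 (0.82 each). The closest genes for Il1r1 were Armcx4, Igtp and Zbtb16 (0.81, 0.79 and 0.78), and for Il1rap G0s2, a neutrophil gate marker, Ppm1n and Xylt1 (0.76, 0.75 and 0.69). Between Il1b and Il1r1 r was -0.40.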

How the data were processed

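The authors deposited raw UMI counts per gene and cell as 1 matrix of 3 libraries. Cell Ranger 6.1.1 made it, per the file headers, and its build is GRCm38 (mm10), per the submitters' processing notes. The annotation version, strand setting and any equalising of depth are not given in the sources used here. Kept barcodes had 300 genes or more and no more than 20% of UMIs from mitochondrial genes (1015 barcodes were under the first limit, 668 over the second), and Scrublet in scanpy 1.11.5, run per library at an expected rate of 6.0% and a score limit of 0.25, removed 1003 doublets (3.86%). Total UMIs were 72943584, 121349261 and 58172348 in libraries 1, 2 and 3.

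Each cell was gated from 27 marker lists: the list's UMIs had to exceed 30.0% of the library's mean share by a Poisson deviance of at least 10, on at least 2 markers, and by 1.5 times the next list. ILC2 also needed a UMI of Gata3, Hs3st1, Il5 or Il13 and at most 1 T cell marker. Of the kept cells 1373 passed no list and 481 resembled 2 types; 1172 gated cells (5.06%) lay near a limit. On simulated cells with 10% free RNA the gate returned 98.7% of 22876 to their class, least for ILC2 (80.3%). These cells were drawn from the mean profiles of the gated classes themselves, without variation inside a class or mixed cells. The share therefore cannot show whether the classes are right. Clusters (Leiden, resolution 1.0, 30 principal components, 2000 variable genes) were built without the 10 genes. They were named from the gate markers, so their agreement with the gate is not an independent check.

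For comparisons across depth each cell was thinned to 1000 UMIs and shallower cells were left out. Values by library are given for at least 20 cells, and described classes held at least 50. A zero allows up to 3 UMIs. Intervals cover counting error only. The 10 genes, the 4 pathway lists and the markers were chosen with earlier results of these data known. All 10 genes were named, with the 3 highest genes of each pathway list, set further ones, and the 3 closest patterns of each gene. GENCODE M21, which holds 30934 of the 31053 identifiers, gave the gene positions. Alternatives changed the filters, gate margin, class naming, denominator, pooling and thinning depth, or left out a library.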

Additional observations from a re-analysis of the deposited data

Results flagged for a closer look

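The Ccr7 dendritic cells and the mast cells, outside the ranking because each class held under 50 cells, had levels above the background class of the gene. The 43 dendritic cells gated by Ccr7 and its companion markers, which mark dendritic cells on their way to lymph nodes, had 2547 CPM of Il1b (2362 to 2743), 131 CPM of Il1rn, 276.5 CPM of Il1r2 and 171 CPM of Nlrp3. By library their Il1b level was 1873, 3077 and 3183 CPM, from 9, 24 and 10 cells, against 2320, 2869 and 4194 CPM in cDC2. Their Il1rn UMIs came from libraries 1 and 2, with 25 and 11 UMIs, and library 3 had 0.

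The 31 mast cells had 2440 CPM of Il1rl1 (1985 to 2967), on 100 UMIs, against 729 CPM in ILC2. They came from libraries 2 and 3, with 6 and 25 cells at 895 and 3019 CPM, and 90.3% of them held a UMI. Mast cells held 10.5% of all Il1rl1 UMIs in 0.134% of the gated cells, and 90 of their 100 UMIs came from library 3. All these values are descriptions of few cells, and their counting intervals do not cover differences between mice.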

How the results depend on the processing

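The number of genes highest in mesothelial cells was 1 with a stricter gate margin (3.0 times the next list), against 2, since Il33 then had 76.3 CPM in mesothelial cells and 85.3 CPM in fibroblasts; the cause was not tested. Without library 3 too few Schwann and glial cells were left, and Il1rap was highest in neutrophils at 98.3 CPM. Of 109 recomputed top-class levels 108 lay within 1.5 times of the reported value and 80 inside its Poisson interval. The exception was Il1rap in Schwann and glial cells, at 99.8 CPM with classes named from clusters. Removing the Xist-positive macrophage cluster, an alternative chosen after seeing the data, left the highest class of all 10 genes as it was. Keeping doublets lowered neutrophil Il1b to 9657 CPM, the lowest value, and leaving out library 2 gave the highest, 12219 CPM. The thinned shares depend on the depth chosen. Depth limits library 3 most, with a median of 2290 UMIs a cell. No paired analysis was possible because the libraries match no labelled group and each group is 1 library.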

Other observations

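Tuft cells, epithelial cells that sense luminal chemicals, numbered 48 and had 37.2 CPM of Il1r2 (20.3 to 62.4) on 14 UMIs, 13 of them in library 3, and 21.2 CPM of Il1rap on 8 UMIs. Il18 was seen in them in library 3 with 7 UMIs, and in libraries 1 and 2 with 0.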
